A study of Mus musculus with 9 samples.

Results

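The genes described here encode the muscle nicotinic acetylcholine receptor and the signalling proteins that gather it at the neuromuscular junction. They were chosen by name, with earlier results of these data known. They are the receptor subunits Chrna1, Chrnb1, Chrnd, Chrng and Chrne, with the organizer Agrn and its receptor Lrp4. The rest are the kinase Musk, the adaptor Dok7 and the scaffold Rapsn. All 10 were present, of 24063 gene symbols in the tables, and the transcripts used were NM_007389 (Chrna1), NM_009601 (Chrnb1), NM_021600 (Chrnd), NM_009604 (Chrng), NM_009603 (Chrne), NM_021604 (Agrn), NM_172668 (Lrp4), NM_001037127 (Musk), NM_172708 (Dok7) and NM_009023 (Rapsn). They were measured by RNA sequencing in wild-type C2C12, a mouse myoblast cell line that fuses into myotubes in low serum. All 9 libraries came from cells differentiated in DMEM with 2% FBS and are labelled day 3. The 1C-MIM group (3 libraries) had its medium supplemented, once the cells had differentiated, with a set of 6 metabolites that belong to one-carbon metabolism. The scramble group (3 libraries) received 6 metabolites unrelated to it, and the control group (3 libraries) stayed in normal medium. What the metabolites were, and at which dose, is not stated in the labels. The cultures are those of a single cell line with no nerve, and nothing in the labels shows that a group's libraries are separate cultures. The p-values therefore measure library-to-library spread that could be technical. Because these are bulk samples, a smaller number of fibres and less RNA per fibre cannot be told apart.

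The muscle receptor is a pentamer with a pair of alpha subunits (Chrna1) and single beta (Chrnb1), delta (Chrnd) and gamma or epsilon subunits. Fetal and denervated muscle uses the gamma subunit (Chrng), and innervated adult muscle replaces it with epsilon (Chrne). At the synapse the nerve secretes agrin, which binds LRP4 and activates the kinase MuSK. MuSK recruits DOK7, and rapsyn then anchors the receptors in dense clusters. Fusing myoblasts switch on the receptor genes through myogenic bHLH factors such as MyoD and myogenin, which bind E-boxes, while ETS factors act at the N-box of synaptic genes. Cultured C2C12 myotubes make receptors without a nerve, which has made them a common system for the study of receptor clustering.

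Upstream sequence was read from the RefSeq promoter table (build GRCm38.p6), in which 7 of the 10 genes had an entry. Chrnd, Rapsn and Lrp4 had none. The 250 bases before the annotated start are printed below for both main subunits with the GC-core E-box, for the adult subunit that was nearly silent, and for Musk, 5′ to 3′ on the gene's own strand. Capitals mark E-boxes (CANNTG) and, in Chrne alone, the N-box (CCGGAA, searched on both strands).
Chrna1, chr2:73580339-73580588, minus strand: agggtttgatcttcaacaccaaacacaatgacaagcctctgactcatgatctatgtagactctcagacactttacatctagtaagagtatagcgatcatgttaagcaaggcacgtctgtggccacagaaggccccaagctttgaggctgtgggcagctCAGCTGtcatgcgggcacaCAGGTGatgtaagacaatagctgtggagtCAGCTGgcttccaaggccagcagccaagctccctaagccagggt
Chrng, chr1:87205561-87205810, plus strand: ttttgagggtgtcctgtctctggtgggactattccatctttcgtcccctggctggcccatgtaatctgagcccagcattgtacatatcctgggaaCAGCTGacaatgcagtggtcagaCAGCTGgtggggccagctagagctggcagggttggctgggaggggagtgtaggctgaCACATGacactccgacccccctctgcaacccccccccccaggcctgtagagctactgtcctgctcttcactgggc
Chrne, chr11:70619195-70619444, minus strand: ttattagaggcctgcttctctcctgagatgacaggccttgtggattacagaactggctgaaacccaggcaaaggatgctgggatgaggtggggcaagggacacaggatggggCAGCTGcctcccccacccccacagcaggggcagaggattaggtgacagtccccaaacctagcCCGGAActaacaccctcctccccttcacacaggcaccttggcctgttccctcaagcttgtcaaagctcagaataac
Musk, chr4:58285712-58285961, plus strand: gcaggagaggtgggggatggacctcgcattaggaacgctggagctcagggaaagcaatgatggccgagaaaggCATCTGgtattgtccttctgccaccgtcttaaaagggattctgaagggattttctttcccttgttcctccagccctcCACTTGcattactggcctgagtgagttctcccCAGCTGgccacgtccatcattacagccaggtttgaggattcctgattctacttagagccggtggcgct

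Chrna1, Chrnb1, Chrng and Musk each held 3 E-boxes in this window, a number reached by 12.2% of all 32851 windows of the same length in the table (27025 genes). The GC-core form CAGCTG, which is its own reverse complement and one of the CANNTG forms, stood in Chrna1 at bases -92 and -44 and in Chrng at -155 and -132, counted from the start to the first base of the match. At least 2 copies of CAGCTG occurred in 1.26% of all windows and at least 1 in 13%. Musk had it at -68 and Chrne at -138. The N-box letters of Chrne lay at -76 and occurred on either strand in 12% of all windows. Agrn and Dok7 have 2 annotated starts each. Agrn held no E-box before the first start, in a window of 83.6% GC against a median of 52.4% over all windows, and 1 before the second. Dok7 held 1 before the first start and none before the second. At least 1 E-box was present in 66.2% of all windows, and such a match describes the letters only.

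**Figure D1:**
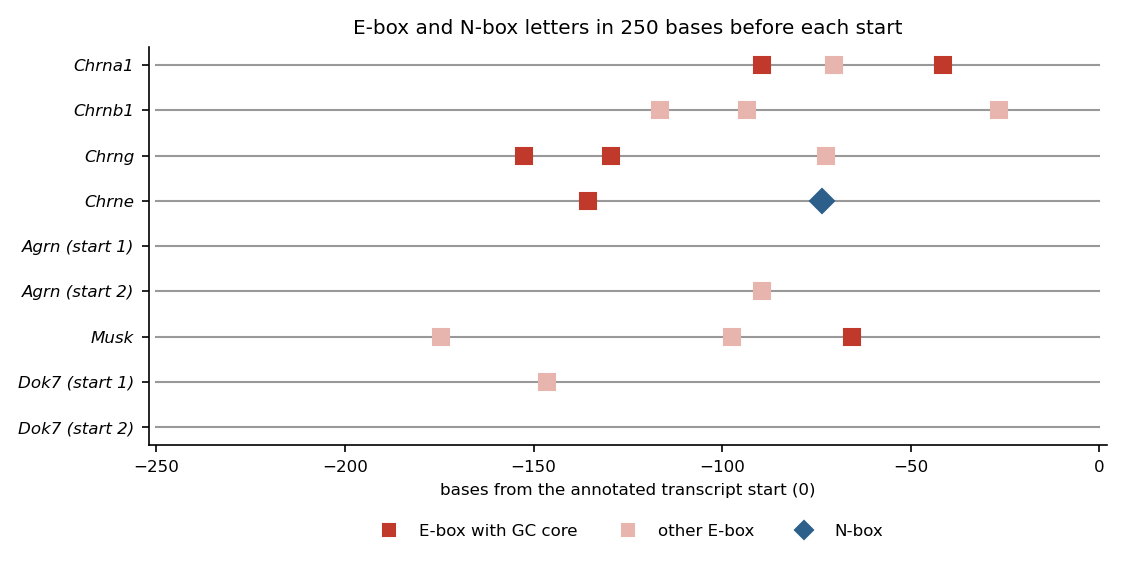
Positions of E-box and N-box letters in the 250 bases before each annotated start of the 7 genes with an entry, with distance from the start in bases on the x axis and 1 line per start. Dark squares are GC-core E-boxes, pale squares other E-boxes and the diamond the N-box, which is marked in Chrne at base -76. Chrna1 and Chrng carry 2 dark squares each.

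Depth was 29.0 to 33.2 M counts per library with each gene represented by 1 transcript, and 14006 genes were tested. The threshold for a call was an adjusted p below 0.05 in edgeR's quasi-likelihood test (Benjamini-Hochberg over all tested genes). The share of tested genes called was 47.3% between 1C-MIM and control (22.9% higher, 24.3% lower) and 46% between 1C-MIM and scramble (22.9% higher, 23.2% lower). Between scramble and control 0% were called, with 482 genes at an unadjusted p under 0.05, 30 called by DESeq2 and 0 by limma-voom. Libraries of the 2 groups did not overlap at 55.5% of genes for 1C-MIM and control, at 59.5% for 1C-MIM and scramble and at 9.09% for scramble and control. The 1C-MIM libraries enter both of their comparisons, so these values stand side by side and do not support each other. The library numbered 1 stood apart in control and, less far, in scramble and 1C-MIM. Results that rest on these libraries are given with and without them. Of 16 myotube markers, 14 were found under their symbols and all 14 were tested. Their summed levels were 12520 to 14590 CPM (counts scaled to the TMM-normalised library total) in 1C-MIM, 11030 to 13480 CPM in scramble and 9858 to 15330 CPM in control. All 12 myoblast markers were found and tested too, so these counts of markers do not tell myotubes from myoblasts.

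Of the 10 genes, 9 had enough reads to be tested, and Chrne did not. Agrn, Lrp4 and Rapsn were called in 1C-MIM against control, all higher, which is 33.3% of the 9 tested, beside 47.3% of all genes called in either direction and 22.9% called higher. The same 3 genes were called higher in 1C-MIM against scramble, beside 46% of all genes called in either direction and 22.9% called higher. Their median log2 fold change, with the 6 genes that were not called, was 0.29 against control and 0.26 against scramble, beside -0.01 and 0.00 over all tested genes. None of the 9 was called between scramble and control, where their log2 fold changes lay between -0.13 and 0.09 and every adjusted p was 1.

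Chrna1 encodes the alpha subunit, which carries most of the acetylcholine binding site. It had 891, 840.4 and 778 CPM in 1C-MIM, 967, 691 and 626 CPM in scramble and 959, 683 and 615 CPM in control. The library numbered 1 was the highest of every group, the groups overlapped, and 1C-MIM replicates 1 to 3 lay between the high and the low libraries of the other groups. The log2 fold change was 0.15 ± 0.20 (SE) against control, with an adjusted p of 0.55 in edgeR's quasi-likelihood test, and 0.14 against scramble, with an adjusted p of 0.601.

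Chrnb1, the beta subunit, had 122, 121 and 115 CPM in 1C-MIM, 109, 87.7 and 77.0 CPM in scramble and 129.7, 82.3 and 78.9 CPM in control. Every 1C-MIM library was above every scramble library, while control replicate 1 was above them all. The log2 fold change of Chrnb1 was 0.39 ± 0.20 against scramble (adjusted p = 0.153, edgeR, and 0.0287 where only these 2 groups were fitted) and 0.30 ± 0.20 against control (adjusted p = 0.256, edgeR). Chrnd, the delta subunit, had 138, 139 and 131 CPM in 1C-MIM, 162, 102 and 102 CPM in scramble and 216, 97.4 and 89.6 CPM in control. The 1C-MIM libraries of Chrnd were close together, and in both other groups the library numbered 1 was above them and the other libraries below. Its log2 fold change was 0.02 ± 0.36 against control (adjusted p = 0.965, edgeR).

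Chrng, the fetal gamma subunit, had 266, 249.5 and 215 CPM in 1C-MIM, 232, 119.6 and 123 CPM in scramble and 299 (replicate 1), 117 and 101 CPM in control. Control replicate 1 was the highest of all 9 libraries, and the remaining control and scramble libraries, apart from scramble replicate 1, lay far below every 1C-MIM library. The coefficient of variation was 10.7% in 1C-MIM, 40.4% in scramble and 63.9% in control. The log2 fold change was 0.50 ± 0.46 against control (adjusted p = 0.413, edgeR) and 0.62 ± 0.46 against scramble (adjusted p = 0.312, edgeR). Neither difference was resolved at this spread between libraries.

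Chrne, the adult epsilon subunit, was close to silent. It had 2, 3 and 3 counts in the 1C-MIM libraries, 9, 0 and 10 counts in the scramble libraries and 16, 10 and 4 counts in the control libraries. Every 1C-MIM library held fewer Chrne counts than every control library, and 1 scramble library held none, where a count of 0 allows up to 3 counts or 0.102 CPM. Summed over its libraries, Chrne made up 0.0378% of the counts of Chrne and Chrng together in 1C-MIM (8 against 21157 counts, exact 95% binomial interval 0.0163 to 0.0745%). The share was 0.13% in scramble (19 against 14542 counts, 0.0786 to 0.204%) and 0.18% in control (30 against 16679 counts, 0.121 to 0.256%), with intervals that cover counting error only. Within each library the log2 ratio of Chrng to Chrne counts (0.5 added to each) averaged 11.13 ± 0.38 in 1C-MIM, 10.27 ± 2.25 in scramble and 9.07 ± 0.54 in control (SD, n = 3 each). The difference of 2.06 between 1C-MIM and control had an exact two-sided permutation p of 0.1, the smallest that 3 against 3 allows, and 0.3 after adjustment over the 3 comparisons. The differences of 0.86 between 1C-MIM and scramble (exact p = 0.5) and 1.20 between scramble and control (exact p = 0.6) were within the spread of the scramble libraries. The first was -0.06 without scramble replicate 3 and 2.11 without scramble replicate 2, and the second was -0.05 without scramble replicate 2 and 2.12 without scramble replicate 3.

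**Figure D2:**
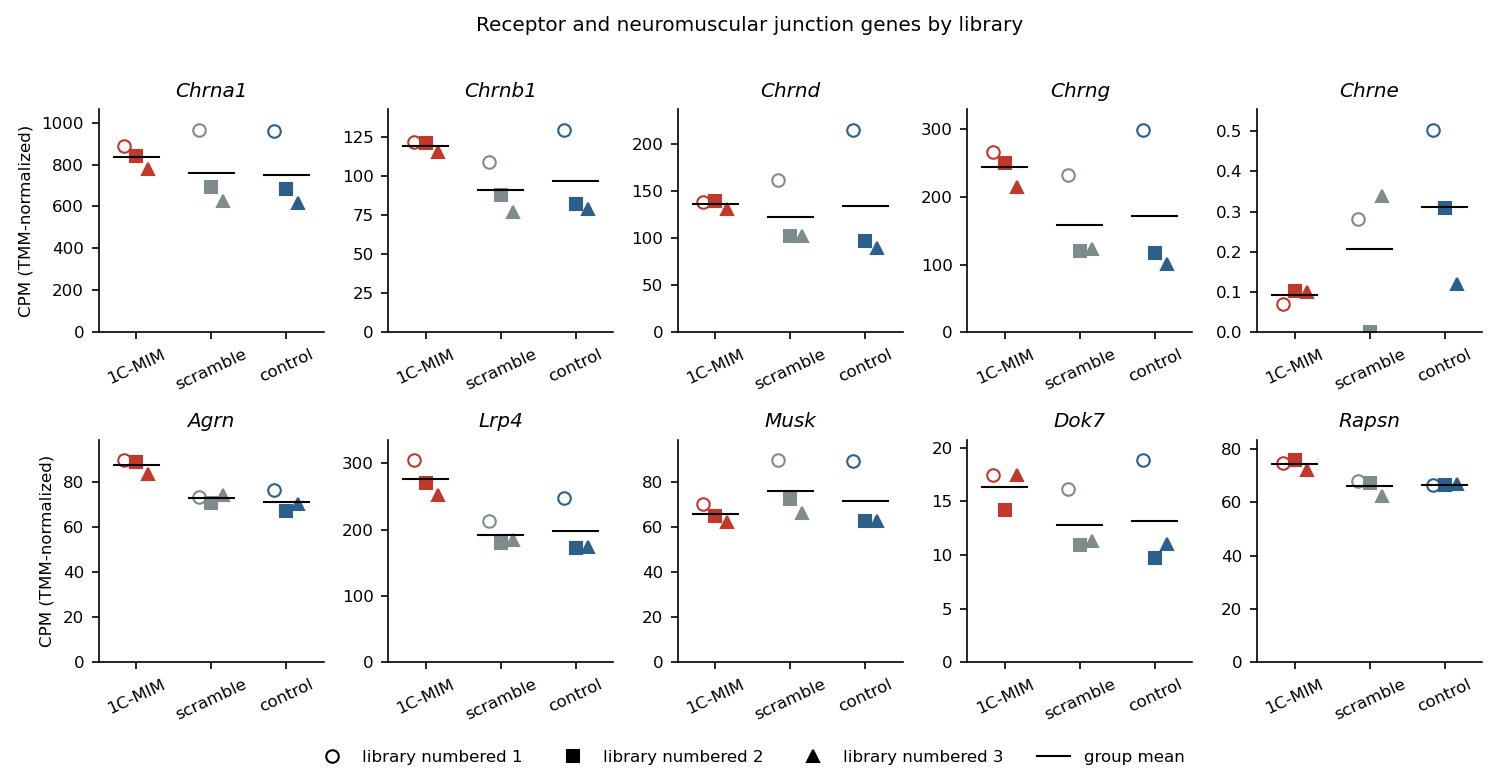
Normalised level (CPM, linear axes from 0) of the 10 genes in each of 9 libraries, with groups 1C-MIM, scramble and control from left to right, open circles for the libraries numbered 1 and a line at each group mean. The open circle is the highest control library for every gene but Rapsn, as at 299 CPM for Chrng, and the 1C-MIM libraries of Agrn, Lrp4 and Rapsn lie above all others.

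Agrn encodes agrin, the secreted proteoglycan that starts receptor clustering. It had 90.0, 89.0 and 83.6 CPM in 1C-MIM, 73.5, 70.9 and 74.5 CPM in scramble and 76.4, 67.5 and 70.3 CPM in control. All 3 1C-MIM libraries were above all 6 others, and the libraries numbered 1 did not stand apart. Agrn rose 1.23-fold against control (log2 0.29 ± 0.06, adjusted p = 0.00137, edgeR's quasi-likelihood test) and 1.20-fold against scramble (log2 0.26 ± 0.06, adjusted p = 0.00289). Leaving out each library in turn left adjusted p at 9.79e-05 to 0.00878 against control and at 0.00475 to 0.0166 against scramble. The deposited tables do not split the neural and muscle splice forms of agrin, which differ in their clustering activity, so the value covers the gene as 1 transcript.

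Lrp4 encodes the agrin receptor, a member of the LDL receptor family. It had 305, 271 and 252 CPM in 1C-MIM, 213, 181 and 185 CPM in scramble and 247, 172 and 174 CPM in control. The lowest 1C-MIM library was above control replicate 1, which was the highest of the other libraries, by only a small margin. Lrp4 rose 1.40-fold against control (log2 0.48 ± 0.14, adjusted p = 0.0199, edgeR's quasi-likelihood test) and 1.43-fold against scramble (log2 0.52 ± 0.14, adjusted p = 0.0149), the largest of the called differences among these genes. The call against control was lost without control replicate 2 (adjusted p = 0.074), control replicate 3 (0.0634) or 1C-MIM replicate 1 (0.0696), at log2 fold changes of 0.38 to 0.40. The call against scramble was lost without 1C-MIM replicate 1 (0.053), scramble replicate 2 (0.0536) or scramble replicate 3 (0.0503). A second, shorter Lrp4 transcript had 19.5 to 21% of the counts of the first in every library.

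Musk encodes the muscle-specific kinase that LRP4 activates. It had 70.6, 65.2 and 62.6 CPM in 1C-MIM, 90.0, 72.8 and 66.5 CPM in scramble and 89.6, 63.1 and 63.0 CPM in control. The 1C-MIM libraries overlapped both other groups, and the highest values were those of scramble replicate 1 and control replicate 1. Its log2 fold change was -0.12 ± 0.15 against control (adjusted p = 0.55, edgeR) and -0.21 ± 0.15 against scramble (adjusted p = 0.296, edgeR). Of its 6 transcripts, 5 had nearly the same counts in every library, and the remaining, shorter one had 48.5 to 52.9% of them.

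Dok7, the adaptor that holds MuSK in its active form, had 17.4, 14.2 and 17.4 CPM in 1C-MIM, 16.2, 10.9 and 11.3 CPM in scramble and 18.9, 9.72 and 11.04 CPM in control. It was the lowest of the tested genes, its groups overlapped, and again the libraries numbered 1 were the highest of scramble and control. The log2 fold change of Dok7 was 0.31 ± 0.25 against control (adjusted p = 0.342, edgeR) and 0.35 against scramble (adjusted p = 0.289, edgeR). Rapsn encodes rapsyn, which binds receptors from the cytoplasmic side. It had 74.8, 75.8 and 72.1 CPM in 1C-MIM, 68.1, 67.2 and 62.3 CPM in scramble and 66.4, 66.5 and 66.8 CPM in control. The 3 control libraries of Rapsn had a coefficient of variation of 0.371%, and every 1C-MIM library lay above every other library. Rapsn rose 1.12-fold against control (log2 0.16 ± 0.05, adjusted p = 0.0197, edgeR's quasi-likelihood test) and 1.13-fold against scramble (log2 0.17 ± 0.05, adjusted p = 0.0131). This small difference lost its call against control with scaling by library size alone (log2 0.11, adjusted p = 0.0855), without control replicate 2 (0.0646), 1C-MIM replicate 1 (0.0502) or 1C-MIM replicate 2 (0.0692). Against scramble it lost the call without 1C-MIM replicate 2 (0.0505) or scramble replicate 3 (0.0588). In the GENCODE vM21 annotation Rapsn overlaps Gm13778, a processed transcript on the opposite strand, and no source says whether counting used strand.

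Within control and scramble, most of these genes were highest in the library numbered 1. The level of control replicate 1 over the mean of control replicates 2 and 3, on the log2 scale, was 1.46 for Chrng, 1.21 for Chrnd, 0.86 for Dok7, 0.69 for Chrnb1, 0.56 for Chrna1, 0.51 for Lrp4 and 0.51 for Musk, but 0.15 for Agrn and -0.01 for Rapsn. In scramble the same difference was 0.93 for Chrng and 0.66 for Chrnd, and 0.02 for Agrn and 0.07 for Rapsn. In 1C-MIM it was smaller but above 0 for every tested gene, from 0.02 for Rapsn to 0.22 for Lrp4. Other muscle genes moved with these libraries. All 14 tested myotube markers were higher in control replicate 1 than in the mean of control replicates 2 and 3, with a median log2 difference of 0.58. In scramble replicate 1, 11 of 14 were higher, with a median of 0.25, and in 1C-MIM replicate 1, 13 of 14, with a median of 0.17. The 12 myoblast markers went the other way in control, with 0 of 12 higher in control replicate 1 and a median of -0.33. In scramble replicate 1, 3 of 12 were higher, with a median of -0.16, and in 1C-MIM replicate 1, 6 of 12, with a median of 0.03. Summed myoblast markers were 1176 to 1294 CPM in 1C-MIM, 1678 to 1937 CPM in scramble and 1587 to 1996 CPM in control. The part of these markers in the results for the receptor genes was not tested.

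The libraries numbered 1 stood furthest apart in control and scramble, where most of these genes were highest in them. Leaving them out lowers those group means and narrows their spread, so the calls that follow are not independent support. Without the 3 libraries numbered 1, 8 of the 9 tested genes were called higher in 1C-MIM than in control by edgeR. Of all 14020 genes tested 3928 were called higher, and 56.5% were called in either direction. Chrng was 2.13-fold higher (log2 1.09 ± 0.10, adjusted p = 0.000284, edgeR with 2 libraries a group). The log2 fold changes of the remaining subunits were 0.55 ± 0.05 for Chrnb1 (adjusted p = 2.63e-07), 0.53 ± 0.05 for Chrnd (7.73e-09) and 0.32 ± 0.07 for Chrna1 (0.00538), and that of Dok7 was 0.61 ± 0.11 (6.64e-05). Agrn (0.32), Lrp4 (0.59) and Rapsn (0.15) kept their calls, and Musk stayed near 0 (log2 0.02 ± 0.05, adjusted p = 0.795). Against scramble all 9 were called, beside 55.2% of all genes, 8 higher, with Chrng at 0.93, and Musk lower at -0.13 (adjusted p = 0.0366, edgeR). Between scramble and control none of the 9 was called without these libraries, and 96 genes (0.685%) were. Leaving out control replicate 1 alone gave 6 calls in 1C-MIM against control, beside 50.9% of all genes, and the added genes were Chrnb1 (0.57, adjusted p = 0.00612), Chrng (1.16, adjusted p = 0.0363) and Dok7 (0.65, adjusted p = 0.00893).

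**Figure D3:**
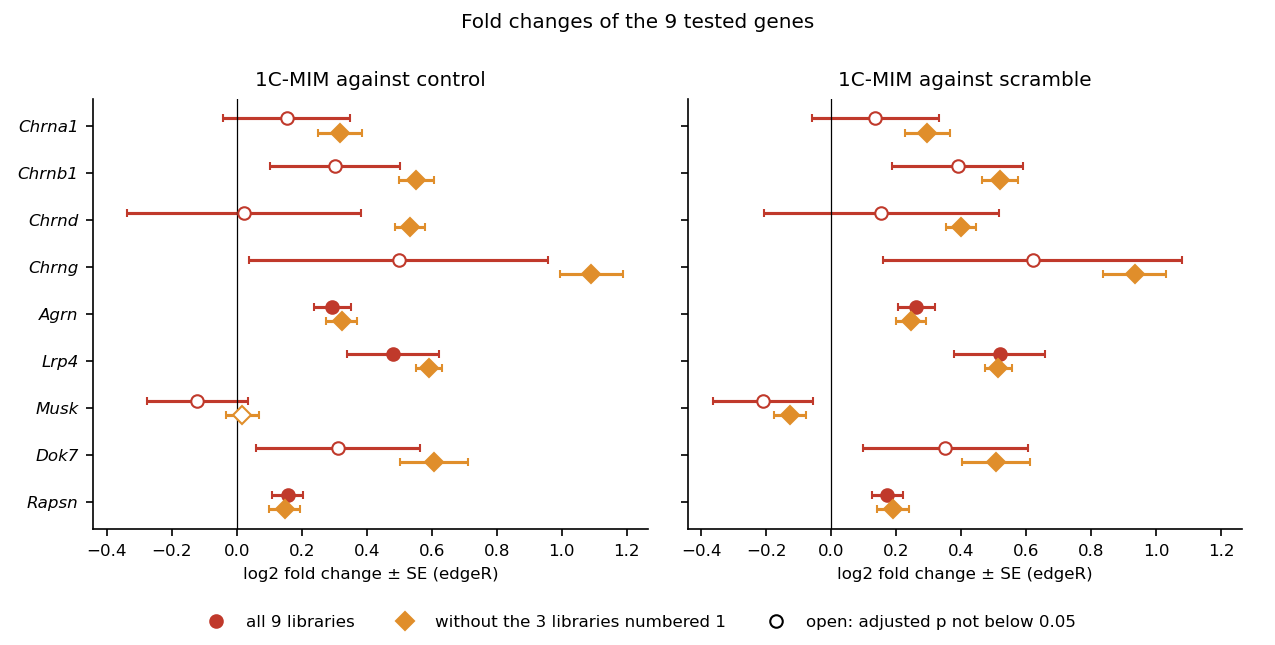
Log2 fold change ± SE from edgeR for the 9 tested genes, 1C-MIM against control on the left and 1C-MIM against scramble on the right, with all 9 libraries (circles) and without the 3 libraries numbered 1 (diamonds), where filled symbols have an adjusted p below 0.05. Chrng shows the greatest shift between the fits, at 0.50 and 1.09 against control, and Agrn, Lrp4 and Rapsn are filled in all of them.

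Levels of different genes were compared in TPM, which is scaled by transcript length. Chrna1 was the most abundant of the 10, with mean TPM of 272 in 1C-MIM, 245 in scramble and 243 in control. Chrng came next, with 178 TPM in 1C-MIM, 115 TPM in scramble and 126 TPM in control. Chrnb1 followed with 78.2, 58.9 and 63.0 TPM in those groups, Chrnd with 64.7, 57.4 and 63.5 TPM and Rapsn with 64.5, 56.4 and 57.0 TPM. Over libraries these 3 overlapped in control and scramble, and Chrnd and Rapsn overlapped in 1C-MIM too, so their order is not resolved there. The agrin receptor Lrp4 had 48.4 TPM in 1C-MIM, 33.3 TPM in scramble and 34.4 TPM in control, Musk had 27.2, 31.0 and 29.3 TPM, Agrn 16.7, 13.7 and 13.5 TPM and Dok7 9.27, 7.17 and 7.44 TPM. The libraries of Lrp4 and Musk overlapped in scramble and control and were separate in 1C-MIM, and those of Chrng overlapped both of its neighbours in control. Chrne lay far below, at 0.081 TPM in 1C-MIM, 0.181 TPM in scramble and 0.274 TPM in control.

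Of the summed TPM of the receptor subunits, Chrng made up 30% ± 1.2 in 1C-MIM, 23.5% ± 3.0 in scramble and 23.8% ± 5.8 in control (SD, n = 3 each). Chrna1 made up 45.9% ± 0.36 in 1C-MIM, 51.8% ± 2.1 in scramble and 50.7% ± 6.4 in control. The Chrng share was 30.9, 30.4 and 28.7% in the 1C-MIM libraries, 26.8, 20.9 and 22.9% in the scramble libraries and 30.5, 20.9 and 20.1% in the control libraries. Control replicate 1 thus had the Chrng share of the 1C-MIM libraries, and the remaining control libraries did not. The shares of Chrnb1 (13.2, 12.6 and 13% in 1C-MIM, scramble and control) and Chrnd (10.9, 12.1 and 12.3%) differed little between groups. The TPM ratio of Chrng to Chrnd was 2.97, 2.77 and 2.53 in 1C-MIM, 2.2, 1.80 and 1.86 in scramble and 2.14, 1.85 and 1.74 in control. That of Lrp4 to Musk was 1.84, 1.77 and 1.72 in 1C-MIM, 1.01, 1.06 and 1.19 in scramble and 1.18, 1.16 and 1.18 in control. For both ratios every 1C-MIM library was above every other, control replicate 1 and scramble replicate 1 included. The 2 ratios were chosen after their values had been seen and were not tested.

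**Figure D4:**
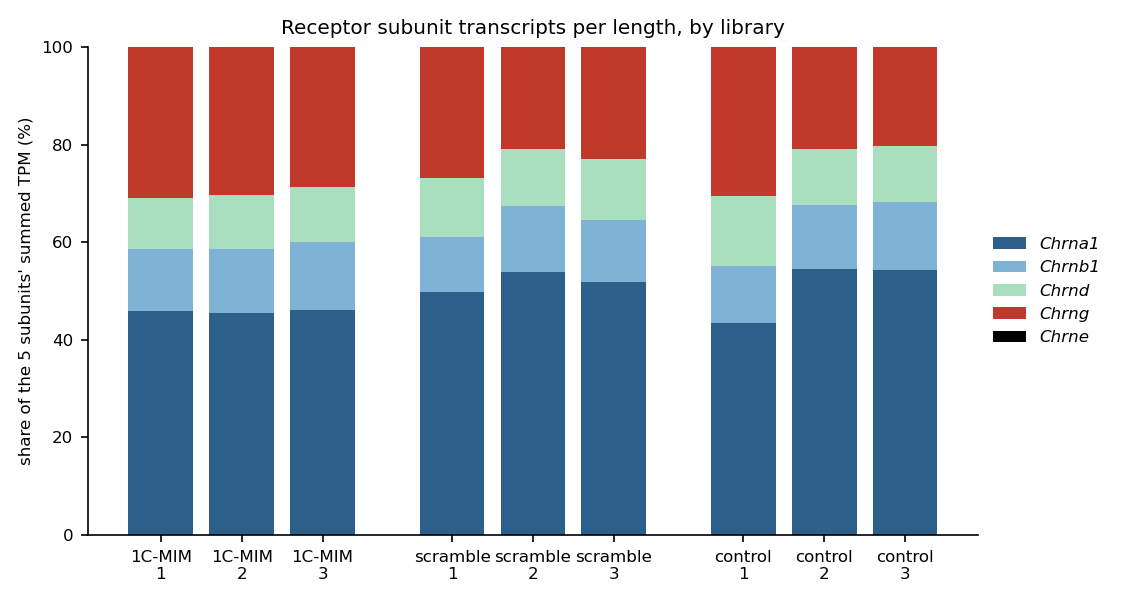
Share (%) of the 5 receptor subunits in their summed TPM in each of the 9 libraries, grouped as 1C-MIM, scramble and control from left to right. Chrng takes 28.7 to 30.9% in 1C-MIM, 20.9 to 26.8% in scramble and 20.1 to 30.5% in control, and Chrne is too small to see.

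The genes whose profile over the 9 libraries was most like that of 4 of the genes were found by the root mean square difference of log2 CPM after centring, among 10425 candidates. For Chrng, whose own spread on this scale was 0.577, they were Pygm (0.119), which encodes muscle glycogen phosphorylase, Shroom3 (0.148) and Hhatl (0.148). Pygm had 69.7, 55.3 and 58.7 CPM in 1C-MIM, 50.4, 29.0 and 31.3 CPM in scramble and 68.7, 24.7 and 23.6 CPM in control, with the same high control replicate 1 as Chrng. For Chrna1 (own spread 0.239) they were Dnajc16 (0.067), Cyb5r1 (0.071) and Gpr155 (0.072). For Musk (0.196) they were Nes (0.044), which encodes the intermediate filament nestin, Mknk2 (0.054) and Lrba (0.065). For Agrn (0.142), Dopey2 (0.031) and Slc45a4 (0.032) were the closest.

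Further genes of the pathway were counted in lists of named genes in 1C-MIM against control and read against the 47.3% of all genes called and their median log2 fold change of -0.01. That share was 50.9% without control replicate 1 (3540 genes higher, 3655 lower) and 56.5% without the libraries numbered 1 (3928 higher, 3990 lower). Of 31 tested genes of the signalling chain downstream of agrin and MuSK, 4 were called higher and 10 lower, with a median log2 fold change of -0.05. Pak1, a kinase that acts on actin below MuSK, fell to 108 ± 3.1 CPM in 1C-MIM, against 161 ± 4.2 CPM in scramble and 165 ± 10.7 CPM in control (log2 -0.61 ± 0.05 against control, adjusted p = 9.75e-06, edgeR). The actin-binding protein gene Cttn fell (log2 -0.33 ± 0.05, adjusted p = 0.000238, edgeR), and so did the adaptor gene Dok1 (log2 -0.52 ± 0.07, adjusted p = 0.000154, edgeR). Cdk5r1, the p35 activator of Cdk5, rose to 22.2 ± 2.2 CPM in 1C-MIM, against 11.3 ± 1.3 CPM in scramble and 11.9 ± 1.7 CPM in control (log2 0.90 ± 0.12, adjusted p = 0.000132, edgeR). Without the libraries numbered 1 the list had 8 genes higher and 12 lower.

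The neuregulin, ErbB and ETS list, which stands for the nerve-derived signal to synaptic nuclei, had 3 genes higher and 3 lower of 12 tested, with a median of -0.01. The ETS factor gene Etv4 fell to 9.99 ± 1.36 CPM in 1C-MIM, against 25.8 ± 2.0 CPM in scramble and 26.6 ± 4.4 CPM in control (log2 -1.41 ± 0.13, adjusted p = 1.88e-05, edgeR). Gabpb1, a partner subunit of the N-box binding factor GABP, fell by 0.34 on the log2 scale (adjusted p = 0.00122, edgeR). Nrg1, which encodes neuregulin, rose (log2 0.51 ± 0.10, adjusted p = 0.00198, edgeR), and so did the phosphatase gene Dusp6 (log2 0.39 ± 0.12, adjusted p = 0.0216, edgeR). The Dusp6 call was lost without control replicate 1 (adjusted p = 0.0574), 1C-MIM replicate 2 (0.0783) or 1C-MIM replicate 3 (0.0821). The count of higher genes was 1 without 1C-MIM replicate 2 or 3.

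Among genes of the synaptic basal lamina and acetylcholinesterase, 4 of 17 tested were higher and 2 lower, with a median of -0.04. The called genes with the smallest p were laminin, nidogen and collagen genes. Lamb1 rose to 799 ± 45.05 CPM in 1C-MIM, against 389 ± 6.3 CPM in scramble and 367 ± 9.1 CPM in control (log2 1.12 ± 0.06, adjusted p = 3.43e-07, edgeR). Lamb2, the laminin chain concentrated at synapses, fell to 93.2 ± 4.0 CPM in 1C-MIM, against 137 ± 3.5 CPM in scramble and 137.5 ± 6.0 CPM in control (log2 -0.56 ± 0.05, adjusted p = 1.00e-05, edgeR). Nid2 rose (log2 0.56 ± 0.06, adjusted p = 3.59e-05, edgeR) and Col4a5 fell (log2 -1.39 ± 0.11, adjusted p = 4.74e-06, edgeR).

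The postsynaptic scaffold around dystrophin and utrophin, with the sodium channel, had 5 genes higher and 4 lower of 18 tested, with a median of 0.04. Dag1, which encodes dystroglycan, rose to 632 ± 37.9 CPM in 1C-MIM, against 390.4 ± 26.4 CPM in scramble and 379.8 ± 62.4 CPM in control (log2 0.74 ± 0.10, adjusted p = 0.00023, edgeR). Ank3, the ankyrin-G gene, rose (log2 0.44 ± 0.04, adjusted p = 1.85e-05, edgeR). Sgcd, delta-sarcoglycan, fell (log2 -1.01 ± 0.07, adjusted p = 2.83e-06, edgeR), as did Dtna, alpha-dystrobrevin (log2 -0.44 ± 0.07, adjusted p = 0.000434, edgeR). The number called higher was 8 without control replicate 1, 10 without the 3 libraries numbered 1, and 3 without control replicate 3, 1C-MIM replicate 2 or 1C-MIM replicate 3.

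Genes known to respond to denervation and muscle activity had 8 of 25 tested higher and 3 lower, with a median of 0.34. The list holds Chrna1, Chrnd, Chrng and Musk themselves. Myog, the myogenin gene, rose to 852 ± 73.8 CPM in 1C-MIM, against 371 ± 38.1 CPM in scramble and 366 ± 82.8 CPM in control (log2 1.22 ± 0.15, adjusted p = 0.000133, edgeR). Hdac4, a histone deacetylase that denervation induces, rose to 93.9 ± 14.7 CPM in 1C-MIM, against 43.2 ± 3.2 CPM in scramble and 40.9 ± 1.1 CPM in control (log2 1.20 ± 0.10, adjusted p = 1.00e-05, edgeR). Myod1 rose (log2 0.48 ± 0.06, adjusted p = 8.55e-05, edgeR), as did the ubiquitin ligase gene Fbxo32 (log2 0.66 ± 0.07, adjusted p = 4.12e-05, edgeR). The number higher was 13 without control replicate 1 (3540 of 14123 among all genes) and 17 without the 3 libraries numbered 1 (3928 of 14020). The number lower was 1 without control replicate 2, 1C-MIM replicate 1 or 1C-MIM replicate 2.

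**Figure D5:**
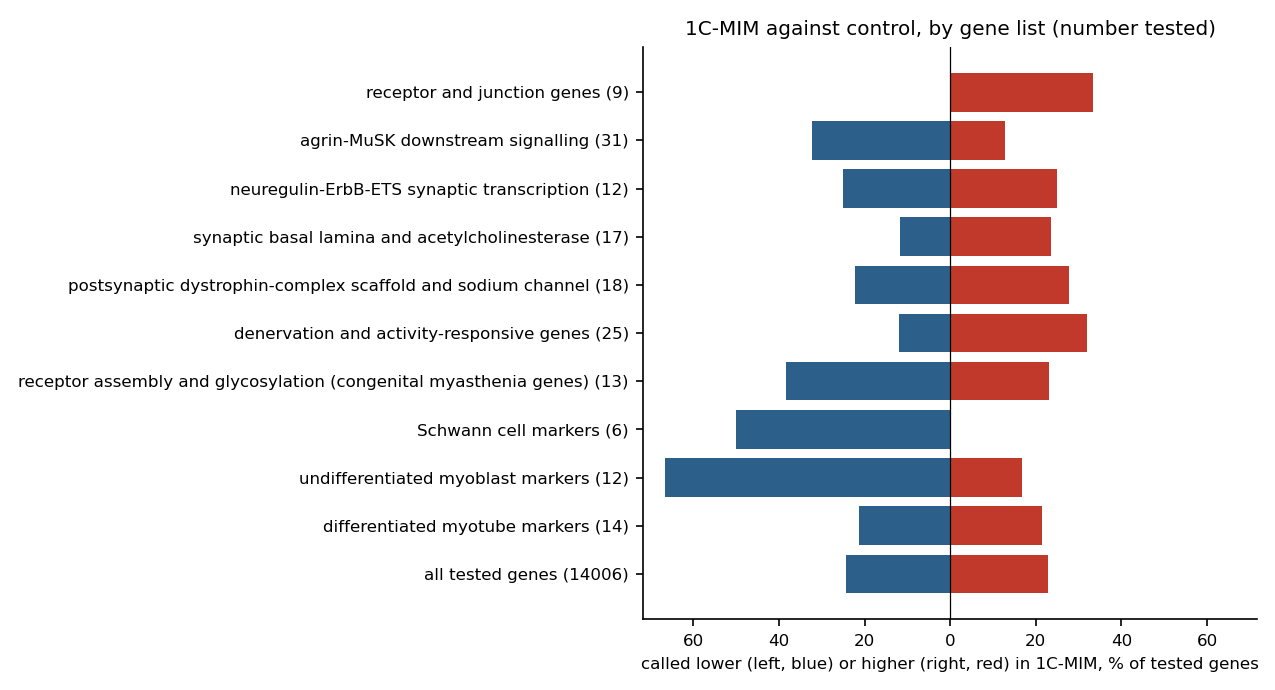
Share of tested genes called lower (left) and higher (right) in 1C-MIM against control for each list with at least 5 tested genes and for all tested genes, with the number tested in brackets. The receptor and junction genes have 3 of 9 higher and none lower, and among all genes 22.9% were higher and 24.3% lower.

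Genes of receptor assembly and glycosylation, many of them mutated in congenital myasthenia, had 3 of 13 tested higher and 5 lower, with a median of -0.15. Gfpt1, the rate-limiting enzyme of the hexosamine pathway, rose to 109.7 ± 1.4 CPM in 1C-MIM, against 82.6 ± 4.2 CPM in scramble and 84.4 ± 7.6 CPM in control (log2 0.38 ± 0.06, adjusted p = 0.000713, edgeR). Dpagt1 (log2 -0.25 ± 0.06, adjusted p = 0.00406, edgeR) and Alg14 (log2 -0.40 ± 0.09, adjusted p = 0.00489, edgeR), enzymes of early N-glycosylation, fell. Slc5a7, the choline transporter gene, fell to 2.24 ± 0.55 CPM in 1C-MIM, against 3.49 ± 0.38 CPM in scramble and 3.97 ± 0.53 CPM in control (log2 -0.82 ± 0.19, adjusted p = 0.00398, edgeR). The number higher was 1 without 1C-MIM replicate 2. Of 16 genes for neuronal nicotinic subunits and muscarinic receptors, 14 averaged below 1 CPM and only Chrm4 and Chrnb2 were tested. Chrm4, a muscarinic receptor, rose to 2.46 ± 0.60 CPM in 1C-MIM, against 0.65 ± 0.17 CPM in scramble and 0.43 ± 0.18 CPM in control (log2 2.5 ± 0.32, adjusted p = 0.000114, edgeR). Chrnb2 had 1.22 ± 0.17 CPM in 1C-MIM, 1.146 ± 0.22 CPM in scramble and 0.859 ± 0.235 CPM in control and was not called (adjusted p = 0.136, edgeR).

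Among markers of the cells that would face muscle at a junction, most motor neuron markers averaged below 1 CPM and most Schwann cell markers did not. Of 10 motor neuron markers, Chat, Slc18a3, Mnx1 and Elavl4 had 0 counts in all 9 libraries and 8 averaged below 1 CPM. Their summed level was 22.1 to 25.9 CPM in 1C-MIM, 73.4 to 76.3 CPM in scramble and 54.9 to 84.5 CPM in control, nearly all of it Tubb3, which fell in 1C-MIM (log2 -1.72 ± 0.16 against control, adjusted p = 3.82e-05, edgeR). Of 10 Schwann cell markers, Foxd3 was at 0 in all libraries and 4 averaged below 1 CPM, and 3 of 6 tested were lower and none higher in 1C-MIM against control, with a summed level of 131 to 149.7 CPM in 1C-MIM, 205 to 218 CPM in scramble and 201 to 211 CPM in control. Without control replicate 1, or without the libraries numbered 1, 1 Schwann cell marker was called higher. Most of the sum was Pmp22, which fell to 91.0 ± 6.9 CPM in 1C-MIM, against 171 ± 13.3 CPM in scramble and 162 ± 14.1 CPM in control (adjusted p = 1.86e-05, edgeR). Of the 12 myoblast markers 2 were higher and 8 lower in 1C-MIM, with a median of -0.78, and among them the proliferation genes Top2a (log2 -0.97 ± 0.11, adjusted p = 8.05e-05, edgeR) and Mki67 (log2 -1.07 ± 0.13, adjusted p = 0.00016, edgeR) fell while Vcam1 rose (log2 0.92 ± 0.06, adjusted p = 2.02e-06, edgeR). Of the 14 myotube markers 3 were higher, Myog among them, and 3 lower, with a median of 0.11. Ckm rose (log2 1.04 ± 0.22, adjusted p = 0.00634, edgeR) and the fast myosin light chain gene Mylpf fell (log2 -0.34 ± 0.07, adjusted p = 0.00185, edgeR). The myotube markers called higher were 5 without control replicate 1 and 8 without the libraries numbered 1, and those called lower were 1 without 1C-MIM replicate 2 or 3.

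In 1C-MIM against scramble, where 46% of all genes were called, 22.9% higher and 23.2% lower, the signalling chain had 4 of 31 tested genes higher and 9 lower. The neuregulin list had 4 of 12 higher and 3 lower, the basal lamina list 4 of 17 higher and 4 lower, and the scaffold list 6 of 18 higher and 4 lower. The denervation list had 9 of 25 higher and 2 lower, and assembly and glycosylation 2 of 13 higher and 5 lower. Of the marker lists, myoblast markers had 2 of 12 higher and 7 lower, myotube markers 3 of 14 higher and 2 lower, and Schwann cell markers 0 of 6 higher and 1 lower. Several of these counts rested on single libraries. The number of neuregulin-list genes called higher was 1 without 1C-MIM replicate 2, 1C-MIM replicate 3 or scramble replicate 1, and 2 without scramble replicate 3. Basal lamina genes called lower were 2 without 1C-MIM replicate 2, 1C-MIM replicate 3 or scramble replicate 3. Denervation genes called lower were 1 without 1C-MIM replicate 2, scramble replicate 1 or scramble replicate 2. Assembly genes called higher were 1 without 1C-MIM replicate 2, 1C-MIM replicate 3, scramble replicate 2 or scramble replicate 3, and those called lower were 3 without scramble replicate 3. Myotube markers called lower were 1 without 1C-MIM replicate 2, 1C-MIM replicate 3, scramble replicate 1 or scramble replicate 2, and Schwann cell markers called lower were 2 without scramble replicate 1. Without the 3 libraries numbered 1, genes called higher against scramble were 7 in the signalling chain, 16 in the denervation list and 6 among the myotube markers. Of the Schwann cell markers 1 was called higher and 2 lower in that fit, where 55.2% of all genes were called (3844 higher, 3902 lower).

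Between scramble and control edgeR called no gene of these lists with all libraries. Without the 3 libraries numbered 1 it called 3 of the 12 myoblast markers lower (25%, beside 0.685% of all genes). It then called 1 gene higher in each of the basal lamina, scaffold, denervation and myotube lists.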

How the data were processed

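Per the labels' protocols, 1.3 µg of total RNA went into each SMARTer mRNA-seq library. Per the file headers, the deposited tables list 33984 RefSeq transcripts with their count, FPKM and TPM. The authors' counts are whole numbers and not normalized, and the authors' FPKM and TPM values are scaled by transcript length and library total. The submitters' processing notes name build GRCm39 and, without roles, DESeq2 1.28.0, bedtools 2.30.0, Subread 2.0.1, featureCounts, StringTie 2.2.1, Picard 2.27.4, STAR, SAMtools 1.15.1, Trim Galore 0.6.7 and Salmon 1.5.2. Which of them made each value is not stated.

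Several transcripts were listed for 5261 symbols (21.9%), and each gene was taken as its transcript of highest mean count over the 9 libraries. FPKM served only to recover transcript length. Genes passing filterByExpr were tested in R 4.3.3 with the quasi-likelihood test of edgeR 4.0.16 (with limma 3.58.1; TMM, robust fit, all 9 libraries, Benjamini-Hochberg over all tested genes). Levels are CPM on TMM-scaled totals, computed here from the deposited counts, fold changes are log2 values ± SE, and TPM was used only to compare genes with each other. Likeness of profiles used log2 CPM with a prior count of 2, among genes averaging at least 5 CPM. The Chrng to Chrne ratio was tested by exact permutation over libraries.

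Each pair of libraries within a group differed beyond sampling noise, with chi-square values of 3.27 to 47.6 per degree of freedom. Replicate 1 against replicates 2 and 3 gave 42.9 and 47.6 in control, 15.2 and 15.6 in scramble and 9.18 and 13.2 in 1C-MIM. Replicates 2 and 3 gave 7.61, 3.27 and 4.18 in those groups. Deviations from the group means of same-numbered scramble and control libraries correlated at r = 0.48, 0.21 and 0.17 for numbers 1 to 3. Control replicate 3 correlated better with scramble replicate 2 (r = 0.24), so this check does not establish pairing by number. A replicate block called 0 genes between these groups, as did the fit without it. For same-numbered 1C-MIM libraries the check gave r = 0.03 to 0.19, so pairing is not established there either.

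The 10 genes, the lists and the rule for named genes were chosen with earlier results of these data known. The rule names all 10 genes, up to 4 genes with the smallest p of each list and the 3 profiles most like Chrna1, Chrng, Musk and Agrn, of which 1 is not reported here. Alternatives were other scalings, filters and tools (DESeq2 1.42.0, limma-voom), the replicate block, the mean over transcripts, the compared groups alone, a stricter threshold, each library left out, and the libraries numbered 1 left out together. The edgeR step was tested on simulated data. It recovered 38% of 1.25-fold, 64% of 1.5-fold, 88% of 2-fold and 96% of 4-fold changes (50 genes each), with 9 false calls. A gene that was not called may therefore still differ. These rates set no upper limit for a gene with a wide spread, such as Chrng (SE 0.46 against control) or Chrnd (SE 0.36).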

Additional observations from a re-analysis of the deposited data

How the results depend on the processing

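Agrn kept its call in both 1C-MIM comparisons under every alternative run. The number of the 9 tested genes called in 1C-MIM against control was 1 to 6 with single libraries left out (1 without control replicate 2 or 1C-MIM replicate 1, 6 without control replicate 1), 8 without the 3 libraries numbered 1 and 1 at an adjusted p below 0.01. Against scramble it was 1 to 3 with single libraries left out (1 without scramble replicate 3), 9 without the libraries numbered 1 and 1 at an adjusted p below 0.01. All genes called with single libraries left out numbered 5487 to 7195 against control and 5267 to 5879 against scramble. With the replicate number as a block 3 of the 9 were called against control, beside 52.8% of all genes. Against scramble 6 of the 9 were called with the block, beside 52.2% of all genes. Chrnb1 (adjusted p = 0.0364, edgeR) and Dok7 (0.0437) were added there as higher and Musk (log2 -0.20, 0.0327) as lower. With only the 2 compared groups fitted, Chrnb1 was also called against scramble (log2 0.38, adjusted p = 0.0287, edgeR). Pairing by number is not established for the 1C-MIM libraries (r = 0.03 to 0.19), and not every library correlated best with its own number. Between scramble and control the number of genes called was 30 with DESeq2, 0 to 3 with single libraries left out and 96 without the libraries numbered 1.

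Differences that were not called with all libraries changed sign in places, and the cause was not tested. Against control, Chrnd was at -0.026 (log2) with library size alone and between -0.20 and 0.54 with single libraries left out, and Musk between -0.21 and 0.065, and at 0.017 without the libraries numbered 1. Between scramble and control the ranges with single libraries left out were -0.19 to 0.23 for Chrna1, -0.23 to 0.18 for Chrnb1, -0.39 to 0.39 for Chrnd, -0.51 to 0.54 for Chrng, -0.010 to 0.083 for Agrn, -0.13 to 0.16 for Lrp4, -0.045 to 0.28 for Musk, -0.24 to 0.31 for Dok7 and -0.040 to 0.023 for Rapsn. Without the libraries numbered 1, Chrnb1 was at 0.032, Chrnd at 0.13, Chrng at 0.16, Lrp4 at 0.079 and Dok7 at 0.099, and with limma-voom Dok7 was at 0.0072. The log2 ratio of Chrng to Chrne differed by -0.056 to 2.11 between 1C-MIM and scramble and by -0.053 to 2.12 between scramble and control. Depth limits Chrne, with at most 16 counts in a library.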
